A study of Mus musculus with 14 samples.

Results

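The report describes dense clusters of accessible chromatin in splenic regulatory T cells (Tregs): stretches of the genome in which many accessible regions lie close together. Regions were sorted by chromosome and start, neighbours were joined when at most 12500 bp separated the end of a region from the start of the next, and a joined stretch was kept as a cluster when it held 15 or more regions. Of 67254 regions, which fell into 28582 joined stretches, 3610 regions (5.37%) lay in 192 clusters. Member regions within 1000 bp of a protein-coding transcription start of GRCm38 were then dropped, which removed 536 regions (14.8%) and left 3074 members among 52199 distal regions (5.89%). The cutoff on the number of regions cut through a continuous distribution, with 50 clusters of exactly 15 regions and 50 stretches of 14 regions just below it.

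The libraries came from mixed bone marrow (BM) chimeras, in which CD45.2+ BM from control (Foxp3Cre Atg14+/fl) or Atg14-deficient (Foxp3Cre Atg14fl/fl) donors was combined in equal parts with CD45.1+ wild-type BM and given to sublethally irradiated Rag1-/- hosts, which lack lymphocytes of their own. After 6 to 8 weeks, splenic CD4+ Foxp3-YFP+ cells were sorted into central Tregs (cTregs, CD44low CD62Lhigh) and effector Tregs (eTregs, CD44high CD62Llow). Bulk ATAC-seq, in which a transposase cuts into open chromatin, gave 3 libraries of control cTregs, 4 of Atg14-deficient cTregs, 3 of control eTregs and 4 of Atg14-deficient eTregs. In both genotypes Cre was driven from Foxp3, and the controls carried a single floxed Atg14 allele. The study's methods state that part of its Foxp3Cre Atg14fl/fl mice also bore an Atg14+/- or Atg14-/- allele, and whether the donors here did is not given in the sources used here. Atg14 encodes a subunit of the Vps34 lipid kinase complex that starts autophagosomes. By the study's description, both cell states came from the spleens of 3 control and 4 Atg14-deficient chimeras, which equals the libraries per group. The sources used here do not say which mouse gave which library number.

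Enhancers are distal elements that bind transcription factors and act on promoters over long distances, and elements that serve the same gene often lie close together. Genes that define a cell type, such as those for lineage transcription factors and surface receptors, are often surrounded by many such elements, which is why dense stretches are commonly examined as candidates for locus-wide control. In Tregs, the passage from the central to the effector state is known to involve loss of factors of the naive program, such as BACH2, TCF1 and LEF1, and gain of effector molecules such as IL-10 and TIGIT.

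The following sequences show the member region with the smallest p between control eTregs and cTregs, in the direction of the cluster, in each of 7 clusters that lead the comparison of the states below. All are the central 300 bases of a region on the plus strand of GRCm38 (RefSeq), all lie in an intron outside any UTR, and capitals mark the motifs found on either strand. The first 4 were less accessible in eTregs.
Bach2, chr4:32343809-32344108: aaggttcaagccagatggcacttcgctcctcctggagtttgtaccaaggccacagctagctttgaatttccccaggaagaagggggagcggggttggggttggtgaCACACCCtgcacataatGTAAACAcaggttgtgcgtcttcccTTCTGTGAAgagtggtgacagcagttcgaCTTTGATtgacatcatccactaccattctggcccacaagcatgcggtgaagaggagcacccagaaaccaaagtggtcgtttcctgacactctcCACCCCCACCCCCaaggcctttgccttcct
Tox, chr4:6902281-6902580: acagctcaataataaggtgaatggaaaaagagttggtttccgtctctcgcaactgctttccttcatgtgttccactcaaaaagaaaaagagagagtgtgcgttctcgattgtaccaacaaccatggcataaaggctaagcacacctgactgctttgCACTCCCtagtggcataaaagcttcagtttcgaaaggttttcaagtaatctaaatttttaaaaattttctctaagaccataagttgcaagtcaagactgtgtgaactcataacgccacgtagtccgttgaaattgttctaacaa
Ikzf1, chr11:11726156-11726455: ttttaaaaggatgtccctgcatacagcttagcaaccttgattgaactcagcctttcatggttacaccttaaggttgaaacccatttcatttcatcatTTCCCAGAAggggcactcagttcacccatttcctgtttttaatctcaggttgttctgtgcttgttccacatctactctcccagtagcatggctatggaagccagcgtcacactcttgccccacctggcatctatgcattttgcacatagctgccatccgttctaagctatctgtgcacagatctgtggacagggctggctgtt
Pip4k2a, chr2:18984288-18984587: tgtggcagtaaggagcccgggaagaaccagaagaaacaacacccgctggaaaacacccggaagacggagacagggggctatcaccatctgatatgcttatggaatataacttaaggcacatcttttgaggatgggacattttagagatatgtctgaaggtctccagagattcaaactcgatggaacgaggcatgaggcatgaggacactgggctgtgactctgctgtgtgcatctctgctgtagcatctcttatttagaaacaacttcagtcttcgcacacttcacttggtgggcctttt
The other 3 were more accessible in eTregs.
Tigit, chr16:43661553-43661852: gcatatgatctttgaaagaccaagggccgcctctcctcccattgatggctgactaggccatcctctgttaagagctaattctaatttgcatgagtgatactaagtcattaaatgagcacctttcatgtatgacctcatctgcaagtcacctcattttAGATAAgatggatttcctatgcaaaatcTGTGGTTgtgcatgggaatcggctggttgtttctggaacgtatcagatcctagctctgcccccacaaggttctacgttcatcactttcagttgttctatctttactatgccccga
Il10, chr1:131021521-131021820: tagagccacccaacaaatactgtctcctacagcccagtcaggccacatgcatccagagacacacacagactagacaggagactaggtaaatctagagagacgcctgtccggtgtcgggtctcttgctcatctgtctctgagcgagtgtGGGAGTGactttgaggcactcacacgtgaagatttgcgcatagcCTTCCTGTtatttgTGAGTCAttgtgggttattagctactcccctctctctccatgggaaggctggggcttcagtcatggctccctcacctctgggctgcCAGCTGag
Cd82, chr2:93456626-93456925: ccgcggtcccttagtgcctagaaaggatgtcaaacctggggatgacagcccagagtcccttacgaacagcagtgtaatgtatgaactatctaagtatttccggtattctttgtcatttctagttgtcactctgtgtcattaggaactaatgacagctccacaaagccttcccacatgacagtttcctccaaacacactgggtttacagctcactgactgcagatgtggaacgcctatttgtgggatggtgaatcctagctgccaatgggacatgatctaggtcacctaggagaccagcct
In the Bach2 window the capitals mark 3 KLF, 1 forkhead, 1 STAT and 1 TCF/LEF match, in the Tox window 1 KLF match and in the Ikzf1 window 1 STAT match. The Tigit window held a GATA and a RUNX match, and the Il10 window a KLF, an ETS, an AP-1 and an E-box match. No match was found in the Pip4k2a and Cd82 windows, which says only that these letters are absent from these bases.

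The clusters were spread over the genome. Chromosome 1 held 17 of them, chromosomes 2 and 7 held 16 each, chromosome X held 1, and 1 lay on an unplaced scaffold. A cluster held 15 to 36 regions (median 17) and spanned 38020 to 154857 bp (median 80892 bp). Protein-coding genes overlapped 181 clusters, 89 of these held exactly 1 gene, and 11 held none. Members lay inside a gene in 61.8% of cases, against 54.0% of the other distal regions.

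The cluster with the most regions, 36, lay over Prkch, which encodes the eta form of protein kinase C, followed by a cluster of 35 regions that holds the chemokine receptor genes Cx3cr1 and Ccr8 and by a cluster of 30 regions with Ccr4, a chemokine receptor gene of skin-homing T cells. Clusters of 28 regions lay over Ctla4, Pip4k2a, Atp10a, Ugcg and Susd1, Tnfrsf8 and Tnfrsf1b, and over a segment of chromosome 17 with Nfkbil1, Ddx39b, Tnf, Lta, Ltb and H2-D1. Clusters of 27 regions lay over Ikzf2, Cd247, Gna15, Sema4d and Ubac2. Several of these genes are textbook Treg genes: Ctla4 encodes the inhibitory receptor that competes for CD28 ligands, Ikzf2 the transcription factor Helios and Tnfrsf1b the TNF receptor TNFR2.

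Accessibility is given as CPM, the counts of a feature scaled to the total count of its library, summed over the distal regions of a cluster unless a single region is named. The mean over libraries was between 35.2 and 1118 CPM per cluster, with a median of 167 CPM. A member had a median of 7.19 CPM, a length of 322 bp and a GC content of 48.5%, against 4.54 CPM, 303 bp and 47.5% in the other distal regions. The strongest member held a median of 22.4% of the counts of its cluster (10.6% to 63.5%), so that few clusters were dominated by a single region.

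Members took a mean of 8.32% ± 0.16 (SD, n = 3) of distal counts in control cTregs, 8.49% ± 0.35 (n = 4) in Atg14-deficient cTregs, 7.60% ± 0.20 (n = 3) in control eTregs and 8.16% ± 0.29 (n = 4) in Atg14-deficient eTregs. Control eTregs (7.44% to 7.83%) lay below all control cTregs (8.14% to 8.44%), with an exact two-sided permutation p of 0.1, the smallest that 3 against 3 libraries allow. Atg14-deficient eTregs (7.90% to 8.42%) lay above all control eTregs, with an exact permutation p of 0.0571, the smallest that 4 against 3 allow. The share in Atg14-deficient eTregs overlapped that in Atg14-deficient cTregs (exact permutation p = 0.143, libraries unpaired). With same-numbered libraries taken as pairs, it was lower in eTregs in all 4, at 8.42% against 8.88%, 7.90% against 8.04%, 8.42% against 8.62% and 7.92% against 8.42%, a difference within pairs that was not tested. The cTregs of both genotypes overlapped (exact permutation p = 0.514). In bulk libraries, fewer cells with an open region and less opening per cell cannot be told apart.

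The first comparison asked how the clusters differ between control eTregs and control cTregs. Counts over the distal regions of each joined stretch of any size were summed and tested together by edgeR, and a stretch was called at an adjusted p below 0.05 over all stretches tested. Clusters fell far more often than they rose: 36 of 192 were lower in eTregs and 1 was higher, beside 4.92% lower, 3.43% higher and 8.35% called in all among the 22335 stretches tested. The only cluster that rose lies on the unplaced scaffold, whose sequence is poorly resolved, and its reads are uncertain. Without it the count was 36 lower and 0 higher. At an unadjusted p below 0.05 and with it included, 61 clusters (31.8%) were lower and 4 (2.08%) higher, against 12.7% and 10.4% of all stretches tested. With same-numbered cTreg and eTreg libraries taken as a block, 61 clusters were lower and 9 higher. Shares over all stretches or distal regions were not counted under the block. Blocked counts here and below therefore have no background and are not read as a result about clusters.

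The share of stretches that fell rose with the number of regions they hold. Among stretches of 1 region, 2.63% were lower in control eTregs, among those of 2 to 4 regions 5.46%, of 5 to 9 regions 9.27%, of 10 to 14 regions 11.7%, and among clusters 18.8%. The share that was higher stayed between 2.97% and 3.90% in the smaller classes and was 0.521% among clusters. Median log2 fold changes moved the same way, from 0.11 in stretches of 1 region to -0.16 in clusters, but with loess offsets, which remove a trend of fold change with level, the median of the clusters was -0.01 and 9 were higher and 18 lower. Larger stretches also held more counts, with a median of 4.02 CPM in stretches of 1 region and 167 CPM in clusters, and their log2 fold changes were more precise, with a median SE of 0.55 and 0.15; the part of this precision in the shares called was not tested.

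**Figure D1:**
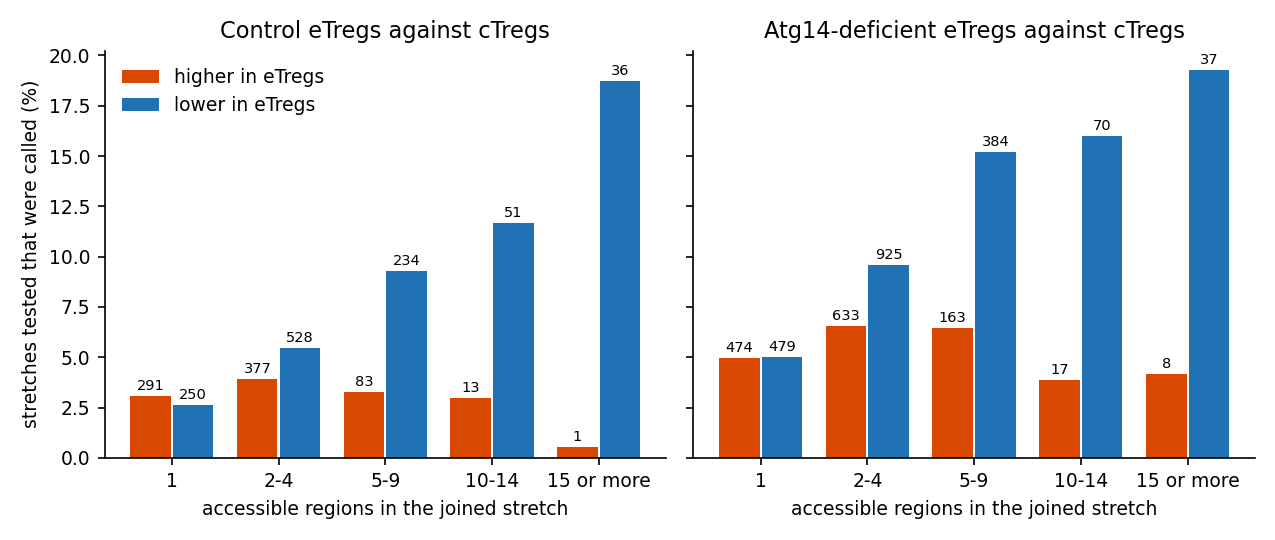
Share of joined stretches called higher (orange) or lower (blue) in eTregs than in cTregs, as a percentage of the stretches tested, by the number of accessible regions in the stretch, for control (left) and Atg14-deficient (right) libraries; numbers above the bars are counts. In both genotypes the share that was lower climbs from the stretches of 1 region to the clusters of 15 or more, while the share that was higher does not.

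The clusters lower in control eTregs lay over Tmem64, Tox, Bach2, Prkcq, Ccr7, Btg1, Irf4, Jak1, Ikzf1, Lef1, Mtss1, Pip4k2a, the Gimap genes, Cytip, Cblb, Itpr1, B3gnt2, 4930523C07Rik, Stk10, Ptprc, Fyb, Nrip1, Il2ra, Emsy, Ppp2r5a, Ubac2, Tcf7, Poc1b, Atp10a, Cd69, Dusp10, Ets1, Tagap, Ctla4 and Otulin, and 1 lay near Mkln1. Their log2 fold changes ran from -0.91 over Tmem64 to -0.40 over Otulin.

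The smallest p belonged to the second of 2 clusters over Bach2, which encodes a repressor that restrains effector differentiation (chr4:32331015-32426771, 24 regions). It held 274, 285 and 239 CPM in control cTregs and 135, 157 and 158 CPM in control eTregs. The eTreg libraries lay below all cTreg libraries, and the log2 fold change was -0.83 (SE 0.12, adjusted p = 0.000228). All 23 of its tested members had a negative log2 fold change, 7 of them past the threshold for single regions, and the window printed above belongs to a member that fell by 1.56 on the log2 scale, from 38.4, 27.3 and 28.5 CPM to 8.46, 14.2 and 9.37 CPM. The first cluster over the same gene (chr4:32216419-32291913, 17 regions) held 212 to 243 CPM in control cTregs and 196 to 218 CPM in control eTregs, which overlapped (log2 fold change -0.15, SE 0.13, adjusted p = 0.508).

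The cluster over Tox, which encodes an HMG-box factor of CD4 lineage development (chr4:6895951-6976237), held 284, 238 and 267 CPM in control cTregs and 133, 125 and 168 CPM in control eTregs. The log2 fold change was -0.89 (SE 0.16, adjusted p = 0.00119). Ikzf1 encodes Ikaros, a zinc finger factor of lymphocyte development, and its cluster (chr11:11656422-11751523) went from 258, 251 and 265 CPM to 150, 155 and 176 CPM, a log2 fold change of -0.68 (SE 0.13, adjusted p = 0.00174). The cluster over Pip4k2a, a phosphoinositide kinase gene (chr2:18872797-18998528), went from 320, 334 and 309 CPM to 193, 225 and 211 CPM (log2 fold change -0.61, SE 0.12, adjusted p = 0.00212). Btg1, which encodes an antiproliferative protein of resting lymphocytes, had a cluster (chr10:96565419-96664504) at 291, 269 and 251 CPM in control cTregs and 156, 179 and 160 CPM in control eTregs (log2 fold change -0.71, SE 0.14, adjusted p = 0.00267). In each of these 4 clusters the eTreg libraries lay below all cTreg libraries.

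The clusters with the smallest p among those higher in control eTregs lay over Tigit, Il10, Cd82, Sept9 and the scaffold. The cluster over Tigit, which encodes an inhibitory receptor of effector Tregs, and Zbtb20 (chr16:43614994-43665185) held 63.8, 79.2 and 65.1 CPM in control cTregs and 97.6, 98.9 and 114 CPM in control eTregs. The groups did not overlap, but the log2 fold change of 0.58 (SE 0.19) missed the threshold (adjusted p = 0.0637), which it passed with the replicate block (adjusted p = 0.00211). It passed in 8 of 16 alternatives in all, loess offsets (adjusted p = 0.0159) among them, with a range of adjusted p from 0.000429 to 0.227. The cluster over Il10, which encodes an immunosuppressive cytokine, and Mapkapk2 (chr1:130979522-131064578) held 126, 183 and 86.5 CPM against 223, 274 and 194 CPM, again without overlap, with a log2 fold change of 0.80 (SE 0.27, adjusted p = 0.0897), and it passed with the replicate block (adjusted p = 7.08e-07). It passed in 7 of 16 alternatives in all, with adjusted p from 5.96e-08 to 0.254 (0.0211 with loess offsets). The clusters over Cd82 and Sept9 overlapped between the states, at log2 fold changes of 0.34 (SE 0.16, adjusted p = 0.202) and 0.41 (SE 0.20, adjusted p = 0.222), and passed in 3 and 2 of 16 alternatives, both with the replicate block (adjusted p 0.00315 and 0.0114) and Cd82 with loess offsets (adjusted p = 0.00655). The scaffold cluster held 983, 824 and 1082 CPM in control cTregs and 1950, 1272 and 1740 CPM in control eTregs (log2 fold change 0.78, SE 0.16, adjusted p = 0.00461).

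**Figure D2:**
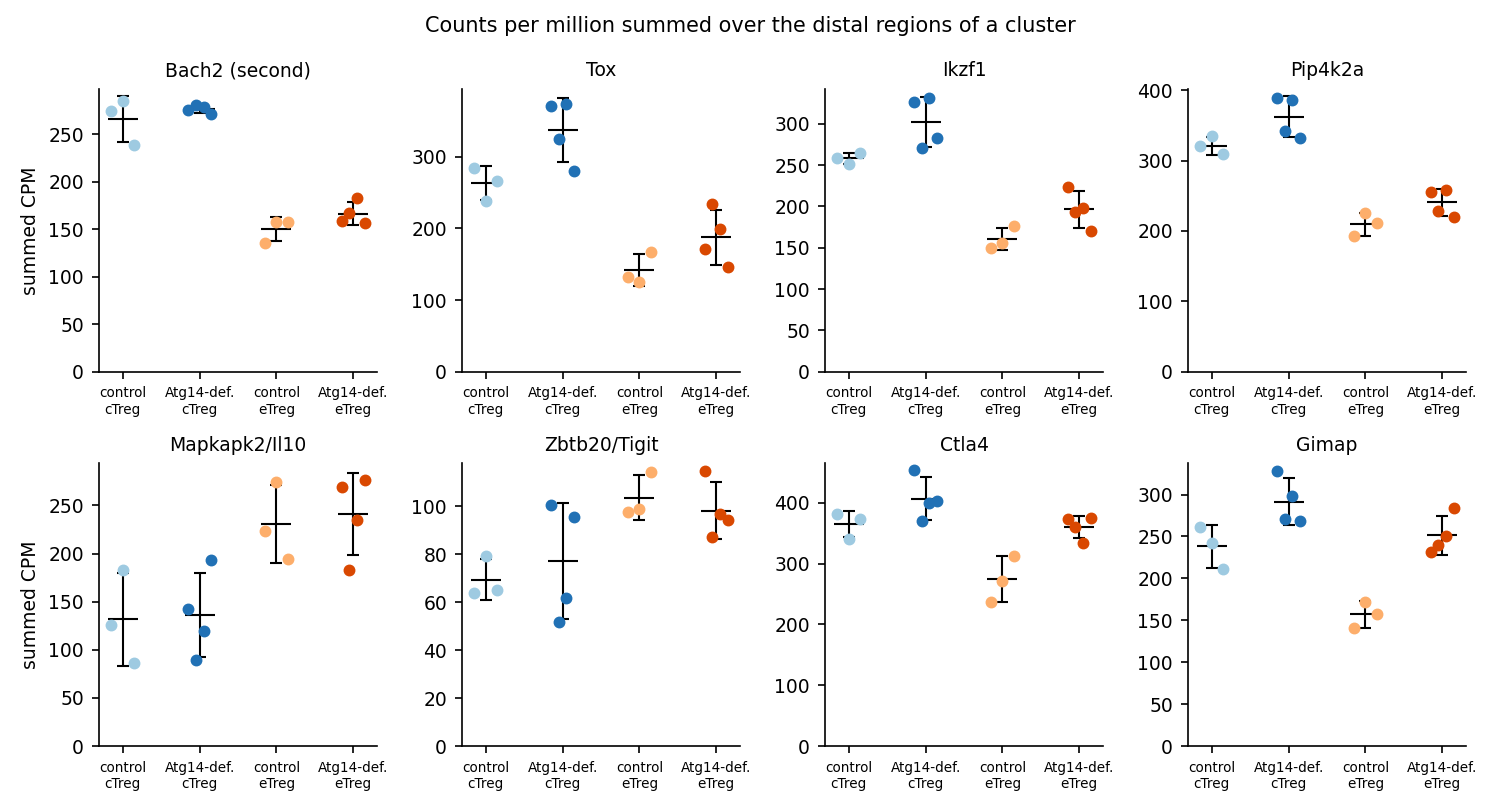
CPM summed over the distal regions of 8 clusters in each library; points are libraries, and black marks and bars give the mean and SD of the group, with 3 control and 4 Atg14-deficient libraries per cell state. The eTreg libraries of both genotypes lie below all cTreg libraries of their genotype for Bach2, Tox, Ikzf1 and Pip4k2a, the control eTregs lie above the control cTregs for Il10 and Tigit, and the Atg14-deficient eTregs lie above the control eTregs for Ctla4 and the Gimap genes.

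Among single members, called at an adjusted p below 0.05 over all regions and a log2 fold change beyond 0.5, 190 of 2939 tested were lower and 50 were higher in control eTregs; 135 members were too low to be tested. Among all distal regions tested, 3.91% were lower and 2.16% were higher, 6.07% in all. At an unadjusted p below 0.05 with the same fold, 545 members (18.5%) were lower and 158 (5.38%) higher, against 5234 (11.9%) lower and 3725 higher of 43819 other distal regions. With the replicate block 420 members were called, again without a background share. The scaffold cluster gave 11 of the 50 that were higher. The Tigit window printed above belongs to a member that went from 5.87, 9.33 and 4.46 CPM in control cTregs to 25.0, 24.9 and 27.8 CPM in control eTregs (log2 fold change 1.94, SE 0.30, adjusted p = 0.000438). The Il10 window went from 3.91, 3.83 and 0 CPM to 14.3, 10.8 and 11.0 CPM (log2 fold change 2.05, SE 0.49, adjusted p = 0.0123).

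Counts of calls in this comparison depended on single libraries. The number of clusters called was 16 without control cTreg replicate 1 and 15 without control eTreg replicate 1, beside the effect of loess offsets given above. The lower levels of Bach2, Tox, Ikzf1, Pip4k2a, Btg1, Prkcq, Ccr7, Irf4 and Lef1 were called under all 16 alternatives run for a named cluster in this comparison, loess offsets included.

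The gene lists below give the share of known T cell genes that lie in a cluster, with how many of these clusters were called. Of 13 naive and central genes, 6 lay in 7 clusters, and 4 of the clusters were lower in control eTregs: the second Bach2 cluster, Ccr7, Lef1 and Tcf7. The cluster over Ccr7, the homing receptor of lymph nodes (chr11:99091704-99204405), went from 188, 161 and 157 CPM in control cTregs to 101, 121 and 82.4 CPM in control eTregs (log2 fold change -0.74, SE 0.16, adjusted p = 0.00562). The cluster over Lef1, which encodes a partner of TCF1 in the naive program (chr3:131085219-131171622), went from 177, 176 and 169 CPM to 101, 122 and 114 CPM (log2 fold change -0.63, SE 0.13, adjusted p = 0.00344). For Tcf7, the gene of TCF1, the log2 fold change was -0.48 (SE 0.13, adjusted p = 0.0214), a call lost with loess offsets (adjusted p = 0.0512) and without control cTreg replicate 1 (0.0986), control eTreg replicate 1 (0.110) or control eTreg replicate 3 (0.0858). The first Bach2 cluster, Il6ra and S1pr1 did not pass, at log2 fold changes of -0.15, -0.24 and -0.11.

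Of 10 Treg identity genes, 3 lay in a cluster. The cluster over Il2ra, which encodes the alpha chain of the IL-2 receptor, went from 127, 128 and 134 CPM to 90.8, 96.8 and 86.0 CPM (log2 fold change -0.51, SE 0.15, adjusted p = 0.0346). That call was lost without any 1 of the 6 control libraries (adjusted p 0.0528 to 0.109) and, narrowly, with loess offsets (log2 fold change -0.40, adjusted p = 0.05003). The cluster over Ctla4 went from 382, 341 and 373 CPM to 237, 271 and 313 CPM (log2 fold change -0.41, SE 0.12, adjusted p = 0.0311), and the call was lost with loess offsets (adjusted p = 0.244) and without control eTreg replicate 1 (adjusted p = 0.183), among others. The cluster over Ikzf2 did not pass (log2 fold change -0.13, adjusted p = 0.601).

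Of 9 T lineage factor genes, 5 lay in a cluster. Tox, Ikzf1 and Ets1 (log2 fold change -0.45, SE 0.13, adjusted p = 0.0347) were lower, and Bcl11b and Runx1 did not pass (-0.36 and -0.12), though Bcl11b did with the replicate block (adjusted p = 0.00798). The call on Ets1 was lost with loess offsets (log2 fold change -0.29, adjusted p = 0.162) and without any control library but eTreg replicate 3 (adjusted p 0.0537 to 0.222), among others. Of 13 antigen receptor genes, 4 lay in a cluster, and 2 were lower. The cluster over Prkcq, which encodes the theta form of protein kinase C downstream of the T cell receptor, went from 247, 241 and 211 CPM to 146, 140 and 133 CPM (log2 fold change -0.74, SE 0.16, adjusted p = 0.00435). The cluster over Ptprc, the gene of CD45, had a log2 fold change of -0.52 (SE 0.15, adjusted p = 0.0309). That call was lost without any 1 of the 3 control cTreg libraries or control eTreg replicate 1 or 3 (adjusted p 0.0539 to 0.187).

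Of 24 effector Treg genes, 6 lay in a cluster, and 1 of these clusters was called, beside 37 of all 192 clusters. Irf4, which encodes a factor needed for effector Treg differentiation, went against the name of its list, from 186, 206 and 174 CPM to 115, 112 and 120 CPM (log2 fold change -0.71, SE 0.15, adjusted p = 0.00550). Il10 and Tigit were given above, and the clusters with Tnfrsf1b, Tnfrsf9 and Ccr8 had log2 fold changes between -0.07 and -0.02. Of 10 cytokine signalling genes, Socs1 and Cish lay in clusters, and neither passed (-0.33 and 0.25), though Socs1 did with the replicate block (adjusted p = 0.0195). The median log2 fold change over the list was -0.48 for naive and central genes, -0.41 for Treg identity, -0.45 for T lineage factors, -0.37 for the antigen receptor and -0.04 for effector Treg genes, beside -0.16 over all clusters.

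The log2 fold changes of members had an SD of 0.73 within clusters in the control comparison, which includes the measurement error of single regions, and 19.6% of their variance lay between clusters. Of the 192 clusters, 83 held called members that were all lower, 15 only such that were higher, 15 held both, and 79 held none. A test of whether the log2 fold changes of members differ within a stretch called 26 clusters uneven, beside 1.48% of the stretches with at least 2 tested members. Of the 26, 6 were also called as a whole while 20 were not. With the replicate block 58 were uneven, for which no share over all stretches was counted. Clusters hold more members and counts than most stretches (median 167 CPM, against 11.2 CPM for 2 to 4 regions), and the part of this in the share called uneven was not tested.

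The most uneven cluster in control libraries lay over Poc1b, which encodes a centriole protein (chr10:99152122-99245252, adjusted p for unevenness 0.00084). As a whole it was lower in control eTregs, at 317, 318 and 300 CPM against 218, 246 and 210 CPM (log2 fold change -0.47, SE 0.13, adjusted p = 0.0247), and 6 members were called lower. A member at chr10:99221408-99221883, whose nearest gene start is that of Dusp6, went the other way, from 4.89, 7.90 and 4.46 CPM to 16.9, 19.7 and 18.2 CPM (log2 fold change 1.63, SE 0.32, adjusted p = 0.0031). In Atg14-deficient libraries the same member was at 8.40, 7.01, 9.47 and 11.6 CPM in cTregs and 7.79, 12.1, 13.8 and 8.73 CPM in eTregs, which overlap (log2 fold change 0.20, SE 0.28).

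The cluster over Tmem64 (chr4:15265376-15328949), showed the same contrast in both genotypes. It held 222, 184 and 211 CPM in control cTregs and 114, 83.4 and 131 CPM in control eTregs (log2 fold change -0.91, SE 0.22, adjusted p = 0.0125), with 5 members called lower and 1 higher. The member at chr4:15311849-15312180 rose from 1.96, 3.35 and 0.892 CPM to 10.4, 9.71 and 8.29 CPM (log2 fold change 2.08, SE 0.57, adjusted p = 0.030), whereas the member at chr4:15291468-15291759 went from 4.40, 7.18 and 5.35 CPM to 0.651, 0.525 and 0.541 CPM (log2 fold change -3.24, SE 0.64, adjusted p = 0.0029). In Atg14-deficient libraries the rising member was between 0 and 1.68 CPM in cTregs and between 2.40 and 13.2 CPM in eTregs, 8 members were lower, and the cluster had a log2 fold change of -1.10 (SE 0.19, adjusted p = 0.00081).

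In the other 3 of the 5 most uneven clusters the sum over the cluster did not pass, so that the change of single members was not seen in the whole. The cluster over Tgfbr2, which encodes a TGF-beta receptor chain, had a log2 fold change of -0.28 (adjusted p = 0.205), but its member at chr9:116187429-116187778 went from 11.7, 6.46 and 8.03 CPM to 1.30, 1.05 and 1.08 CPM (log2 fold change -2.92, SE 0.52, adjusted p = 0.0014). In the cluster with Slc12a3, Herpud1 and Nlrc5, the last of which encodes an activator of MHC class I genes, the member at chr8:94422317-94422675 went from 11.2, 4.79 and 11.6 CPM to 1.30, 1.05 and 1.08 CPM (log2 fold change -2.97, SE 0.54, adjusted p = 0.0016). In the cluster with Coro2a, which encodes an actin-binding coronin, the member at chr4:46560271-46560707 rose from 0.978, 5.27 and 1.78 CPM to 8.46, 17.1 and 17.7 CPM (log2 fold change 2.37, SE 0.47, adjusted p = 0.0035). The number of uneven clusters fell to 0 without control cTreg replicate 1, to 5 without control cTreg replicate 3 and to 6 without control eTreg replicate 2, and was 12 without control eTreg replicate 1 and 13 without control eTreg replicate 3.

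The cluster over Ctla4 was uneven in both genotypes (adjusted p 0.014 in control and 0.0049 in Atg14-deficient libraries). Members at chr1:60874449-60874756, chr1:60882827-60883160 and chr1:60910856-60911157 were lower in control eTregs, with log2 fold changes of -1.54, -1.47 and -0.94. The member at chr1:60936920-60937343 was higher, from 4.15, 9.33 and 5.35 CPM to 12.4, 12.6 and 20.5 CPM (log2 fold change 1.26, SE 0.38, adjusted p = 0.044). The third of the falling members lies in the gene, and the rising member lies 27749 bp from the start of Ctla4, outside the gene.

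**Figure D3:**
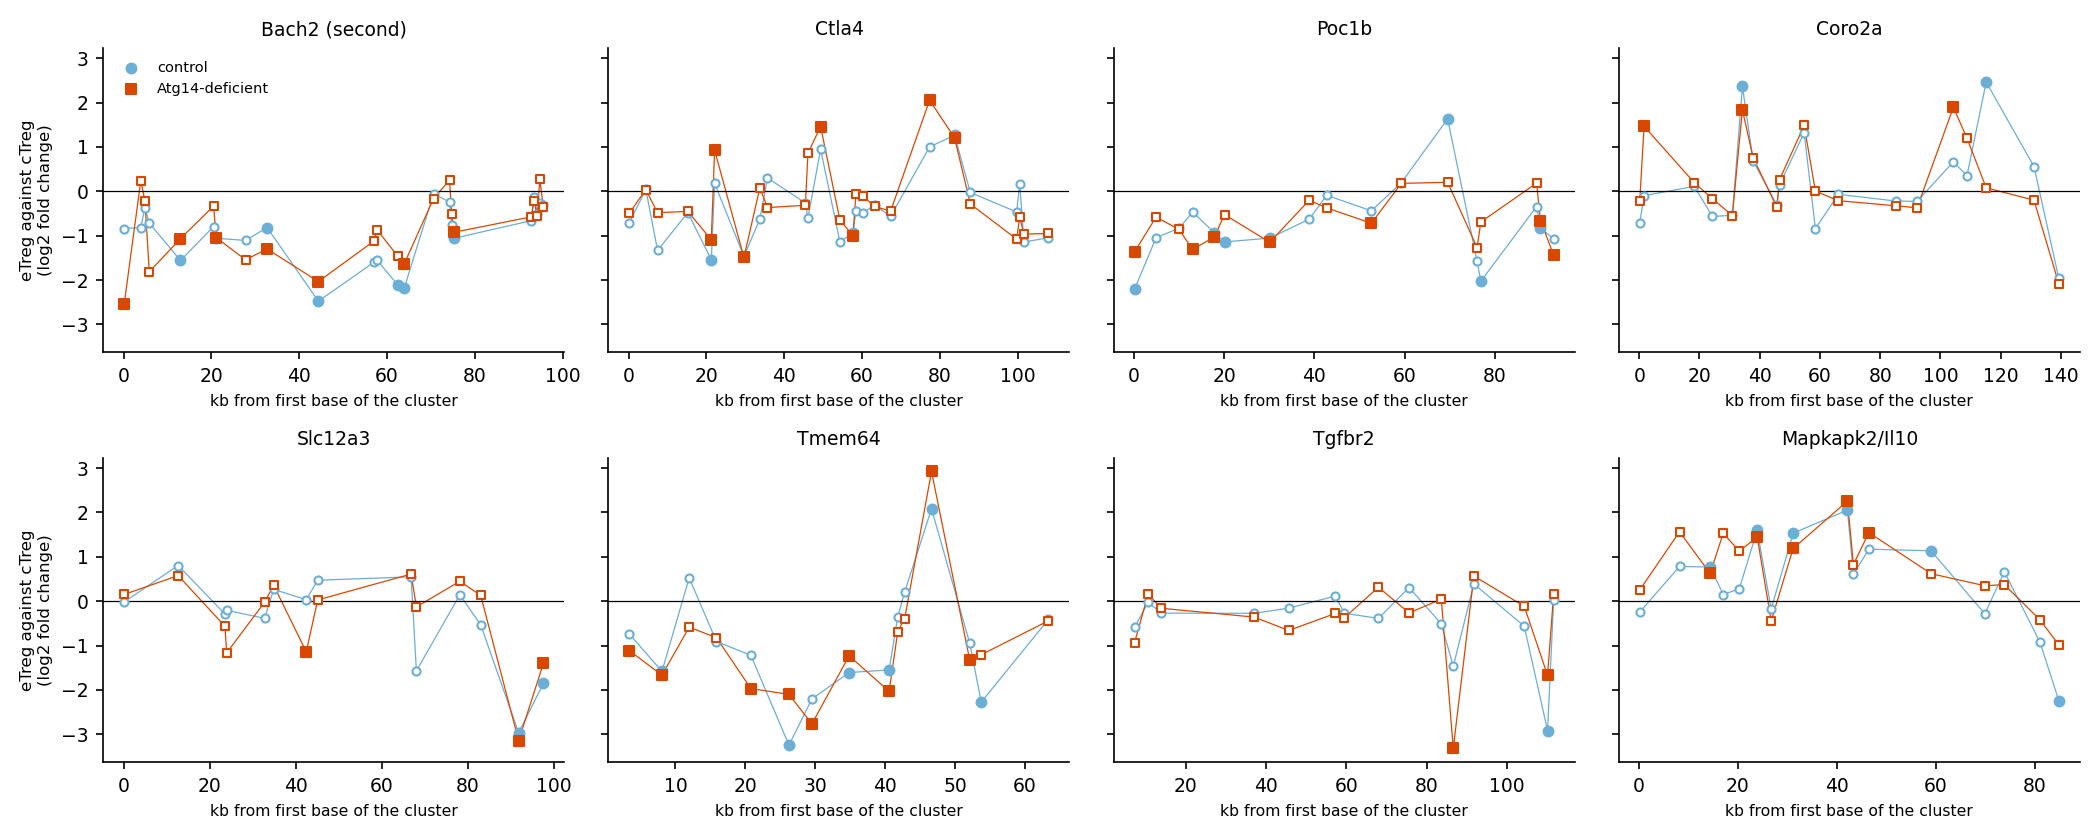
Log2 fold change of each tested distal region between eTregs and cTregs along 8 clusters, against its distance in kb from the first base of the cluster; blue circles are control and orange squares Atg14-deficient libraries, and filled symbols passed the thresholds for single members. Nearly all members of the second Bach2 cluster lie below 0, whereas in the Ctla4, Poc1b, Tmem64 and Mapkapk2/Il10 clusters members past the threshold lie on both sides of 0 in at least 1 genotype.

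The same comparison was made between Atg14-deficient eTregs and Atg14-deficient cTregs. Of 192 clusters, 37 were lower and 8 higher, beside 8.48% lower, 5.8% higher and 14.3% called in all among the stretches tested. With same-numbered cTreg and eTreg libraries of the Atg14-deficient group taken as a block, 55 were lower and 23 higher, again without a background share. Loess offsets gave 24 lower and 25 higher and moved the median of the clusters from -0.07 to 0.07, so that the excess of lower clusters in this genotype depended on the scaling. By size, the share called lower was 5.03% in stretches of 1 region, 9.57% for 2 to 4, 15.2% for 5 to 9, 16.02% for 10 to 14 and 19.3% in clusters. Among single members 247 were lower and 108 higher, beside 6.36%, 4.08% and 10.4% in all among distal regions, and 557 were called with the block, without a background share.

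The clusters with the smallest p among those that fell were the second Bach2 cluster, Cytip, Tox, Pip4k2a and Atp10a. The Bach2 cluster held 276, 281, 279 and 272 CPM in Atg14-deficient cTregs and 159, 167, 183 and 157 CPM in Atg14-deficient eTregs (log2 fold change -0.73, SE 0.10, adjusted p = 0.000100). The cluster over Tox held 371, 324, 373 and 280 CPM against 171, 235, 200 and 146 CPM (log2 fold change -0.85, SE 0.14, adjusted p = 0.000277). Neither overlapped between the states. Cytip encodes a protein that binds cytohesins and loosens integrin adhesion, and its cluster (chr2:58153744-58199774) held 361, 328, 344 and 303 CPM against 239, 183, 219 and 180 CPM (log2 fold change -0.70, SE 0.11, adjusted p = 0.000276). The cluster over Atp10a, which encodes a phospholipid-transporting ATPase, went from 373 to 489 CPM in cTregs to 213 to 311 CPM in eTregs (log2 fold change -0.70, SE 0.12, adjusted p = 0.000564), and that over Pip4k2a had a log2 fold change of -0.59 (SE 0.10, adjusted p = 0.000543).

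Clusters that were higher in Atg14-deficient eTregs included those over Vmp1, the Nfkbil1 to Tnf segment, Sept9, Atxn1, Il10 with Mapkapk2, and Rapgef1, besides the scaffold cluster. Vmp1 encodes an endoplasmic reticulum protein of autophagosome formation, and its cluster (chr11:86568485-86624757) held 134, 130, 118 and 184 CPM in Atg14-deficient cTregs and 238, 197, 187 and 247 CPM in Atg14-deficient eTregs (log2 fold change 0.62, SE 0.14, adjusted p = 0.00439). The Nfkbil1 cluster (chr17:35164565-35275088), which holds the cytokine genes Tnf, Lta and Ltb, was at 105, 82.1, 93.3 and 113 CPM against 158, 115, 161 and 171 CPM (log2 fold change 0.62, SE 0.14, adjusted p = 0.00461). Both were without overlap between the states. Over Il10 and Mapkapk2 the values were 142, 89.9, 119 and 193 CPM in cTregs and 270, 183, 235 and 277 CPM in eTregs (log2 fold change 0.82, SE 0.24, adjusted p = 0.0321), which overlap, and the call was lost without any of 6 of the 8 libraries (adjusted p up to 0.0931, without cTreg replicate 3). The clusters over Sept9, a septin gene, and Atxn1, a transcriptional corepressor gene, had log2 fold changes of 0.65 (SE 0.17, adjusted p = 0.0138) and 0.71 (SE 0.19, adjusted p = 0.0158), and those calls were lost in 2 and 5 of 18 alternatives, Sept9 without cTreg replicate 3 (adjusted p = 0.0523) or eTreg replicate 4 (0.0582), and Atxn1 without cTreg replicate 1 (0.0510), 2 (0.0549) or 3 (0.0616) or eTreg replicate 1 (0.0540) or 4 (0.0529). The cluster over Rapgef1 had a log2 fold change of 0.45.

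From the gene lists, the second Bach2 cluster, Ccr7 (log2 fold change -0.48, adjusted p = 0.0215), Lef1 (-0.38, adjusted p = 0.0250), Irf4 (-0.47, adjusted p = 0.0189), Tox, Ikzf1 (-0.62, adjusted p = 0.000625) and Prkcq (-0.62, adjusted p = 0.00374) were lower in Atg14-deficient eTregs, and Il10 was higher. Tcf7, Il2ra and Ets1 did not pass (log2 fold changes -0.28, -0.32 and -0.34) but did with the replicate block (adjusted p 0.00817, 0.0116 and 0.00264), as did the clusters with Socs1, Tigit and Cish (0.00413, 0.0172 and 0.000628). Ctla4 and Ptprc had log2 fold changes of -0.17 and -0.04, with adjusted p of 0.279 and 0.864, and of 0.0902 and 0.767 with the block. The calls on Ccr7 and Lef1 were lost with loess offsets (adjusted p 0.0571 and 0.0972), and those on Ccr7, Lef1 and Irf4 without some of the libraries, with adjusted p up to 0.0798 without eTreg replicate 1, 0.0806 without cTreg replicate 1 and 0.101 without cTreg replicate 3.

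Unevenness was called for 46 clusters in Atg14-deficient libraries, beside 3.17% of the stretches tested, and 13 of the 46 were also called as a whole. With the block 79 clusters were uneven, again without a share over all stretches, and the part of cluster size was not tested here either. The within-cluster SD, measurement error included, was 0.71, and 22.3% of the variance of member log2 fold changes lay between clusters. In the Il10 cluster, 5 of 16 members were higher and none lower, against 5 higher and 1 lower in control libraries, and the Il10 window printed above was at 0.840, 1.56, 2.63 and 3.85 CPM in Atg14-deficient cTregs and 11.99, 8.37, 12.7 and 11.3 CPM in Atg14-deficient eTregs (log2 fold change 2.26, SE 0.45, adjusted p = 0.0021).

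The comparisons of the states in the 2 genotypes share no library. All 37 clusters called in control libraries had the same direction in Atg14-deficient libraries, and all 45 called in Atg14-deficient libraries had the same direction in control libraries. Both comparisons called 29 clusters, which is 78.4% of the first set and 64.4% of the second. Over all 192 clusters the log2 fold changes of the genotypes had the same sign in 150, with a Pearson r of 0.87 given as a description, since clusters of a library share its depth and base composition. Of the 240 members called in control libraries, 237 had the same direction in Atg14-deficient libraries and 151 were called there too. The same overlap over all called stretches and distal regions is not given here, so no trait of clusters is read from it.

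**Figure D4:**
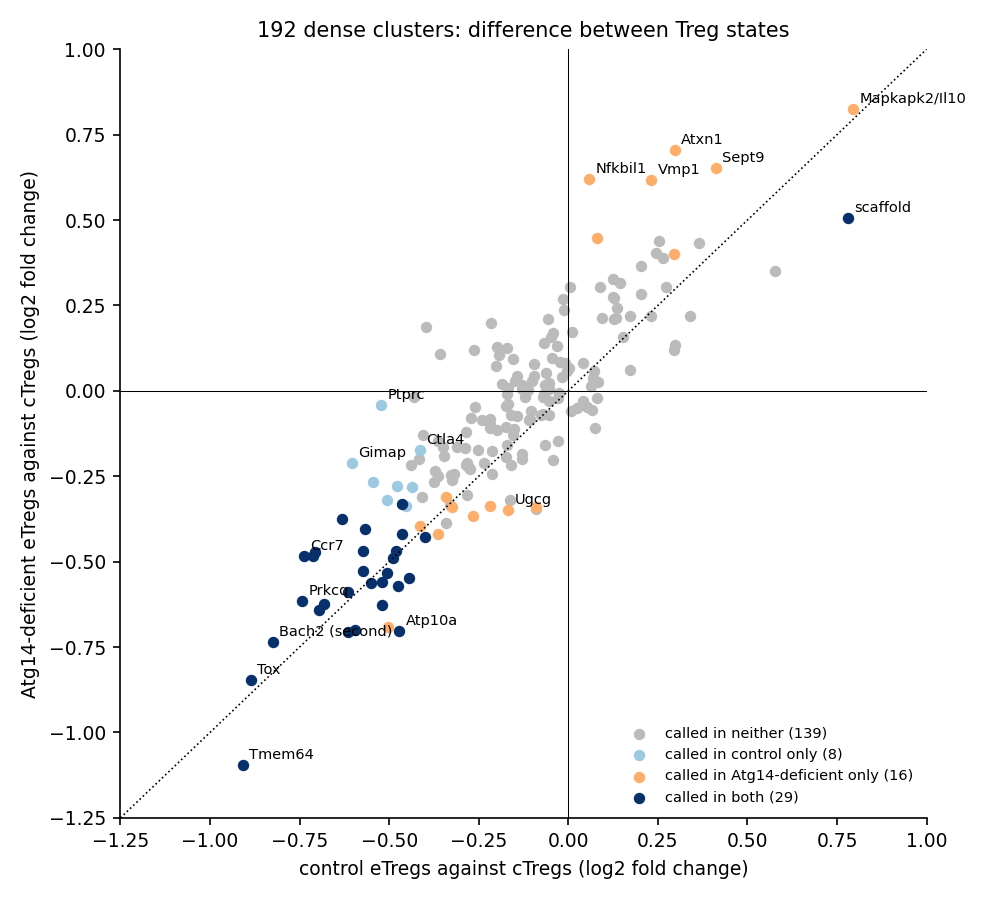
Log2 fold change between eTregs and cTregs for each of the 192 clusters in control libraries (horizontal axis) and in Atg14-deficient libraries (vertical axis), coloured by the comparison that called the cluster; the dotted line marks equal values. The 29 clusters called in both lie near the line, 28 of them in the lower left, and the clusters over Nfkbil1, Vmp1, Atxn1 and Sept9 lie above it.

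The genotype comparison in eTregs asked whether loss of Atg14 changed the clusters. A single cluster was called, that over the Gimap genes, beside 0.0313% of the stretches tested. At an unadjusted p below 0.05, 48 clusters were higher and 1, that of the scaffold, was lower in Atg14-deficient eTregs, 49 of 192. Among all stretches tested it was 8.22%, with 5.43% higher and 2.79% lower, so these leaned the same way. Members behaved alike: none was called, beside 0.0192% of distal regions, and without adjustment (p below 0.05, same fold) 244 were higher and 28 lower, beside 6.97%. Of 43819 other distal regions, 2097 were higher and 892 lower by the same rule. The median log2 fold change of the clusters was 0.19, and between 0.12 and 0.15 under TMM, loess, GC-content and DESeq2 scaling. It climbed with size, from 0.02 in stretches of 1 region to 0.05 for 2 to 4, 0.09 for 5 to 9 and 0.13 for 10 to 14 regions. Of the stretches of 10 to 14 regions, 63 were higher and 9 lower at an unadjusted p below 0.05, 16.5% in all. Larger stretches were also more precise, with a median SE of 0.51 for 1 region and 0.14 for clusters. The part of this precision was not tested.

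Gimap genes encode GTPases of immunity-associated proteins that support lymphocyte survival. Their cluster (chr6:48664643-48748039, 23 regions of which 16 are distal) overlaps Gimap1, Gimap4, Gimap5, Gimap6, Gimap7 and Gimap9. It held 141, 172 and 157 CPM in control eTregs and 231, 240, 250 and 284 CPM in Atg14-deficient eTregs, without overlap (log2 fold change 0.68, SE 0.12, adjusted p = 0.0306). The call was lost without control eTreg replicate 1 (adjusted p = 0.375) or 3 (0.145) and without Atg14-deficient eTreg replicate 3 (0.112) or 4 (0.175), and in a fit of the eTreg libraries alone (0.0759), and Gimap genes are similar in sequence, so that reads could be split between copies. In cTregs the cluster held 261, 243 and 211 CPM in control and 328, 271, 298 and 268 CPM in Atg14-deficient libraries (log2 fold change 0.29, SE 0.12, unadjusted p = 0.0248). Of its 15 tested members, 14 had a positive log2 fold change in eTregs and 9 passed that fold without adjustment. The member at chr6:48727774-48728204, in which control eTregs were at 13.7, 24.1 and 20.2 CPM and control cTregs at 40.1 to 52.8 CPM, was at 29.4, 36.0, 28.6 and 25.7 CPM in Atg14-deficient eTregs. The lower level in control eTregs than in control cTregs (log2 fold change -0.60, SE 0.13, adjusted p = 0.00477) uses the same 3 control eTreg libraries.

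The cluster over Mtmr9 and Xkr6 (chr14:63535003-63609000), a myotubularin-related phosphatase gene and an XK-related membrane protein gene, was the next by p. It held 50.4, 43.3 and 42.2 CPM in control eTregs and 87.2, 83.7, 73.9 and 84.0 CPM in Atg14-deficient eTregs (log2 fold change 0.86, SE 0.17, adjusted p = 0.0730). In cTregs it held 40.1, 52.7 and 42.8 CPM in control and 86.1, 53.7, 85.7 and 89.3 CPM in Atg14-deficient libraries (log2 fold change 0.80, SE 0.17, adjusted p = 0.326). The eTreg difference passed in 3 of 17 alternatives (adjusted p 0.00341 to 0.416), loess offsets among them (0.0383), and the cTreg difference in 2 of 17. The groups did not overlap in either state, and the cluster lies 15.96 Mb from Atg14 on the same chromosome; the part of that linkage in the difference was not tested. The other 7 clusters of chromosome 14 lie between 18.6 and 74.4 Mb from Atg14.

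The Nfkbil1 cluster on chromosome 17 was at 83.6, 108 and 77.9 CPM in control eTregs and 158, 115, 161 and 171 CPM in Atg14-deficient eTregs (log2 fold change 0.76, SE 0.15, adjusted p = 0.0825). It passed in 4 of 17 alternatives (adjusted p 0.00559 to 0.640), loess offsets among them (0.0357). In this cluster, too, the groups did not overlap, and 14 of 15 tested members had a positive log2 fold change. In cTregs the groups overlapped (log2 fold change 0.19, SE 0.15, unadjusted p = 0.220).

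Other clusters lay higher in all Atg14-deficient than in all control eTregs without passing the threshold. Ctla4 was at 237, 271 and 313 CPM in control and 373, 359, 334 and 374 CPM in Atg14-deficient eTregs (log2 fold change 0.39, SE 0.11, unadjusted p = 0.00172, adjusted p = 0.332). Ptprc was at 100, 148 and 125 CPM against 220, 166, 190 and 177 CPM (log2 fold change 0.59, SE 0.14, adjusted p = 0.239), and Bcl11b, which encodes a factor of T lineage commitment, at 127, 190 and 148 CPM against 255, 217, 233 and 219 CPM (log2 fold change 0.57, SE 0.14, adjusted p = 0.239). No stretch was called uneven in this comparison (0.0% of those tested), and 10 clusters had an unadjusted p for unevenness below 0.05. DESeq2's Wald test called 4 clusters and 3 members, beside the counts of 1 and 0 by edgeR.

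**Figure D5:**
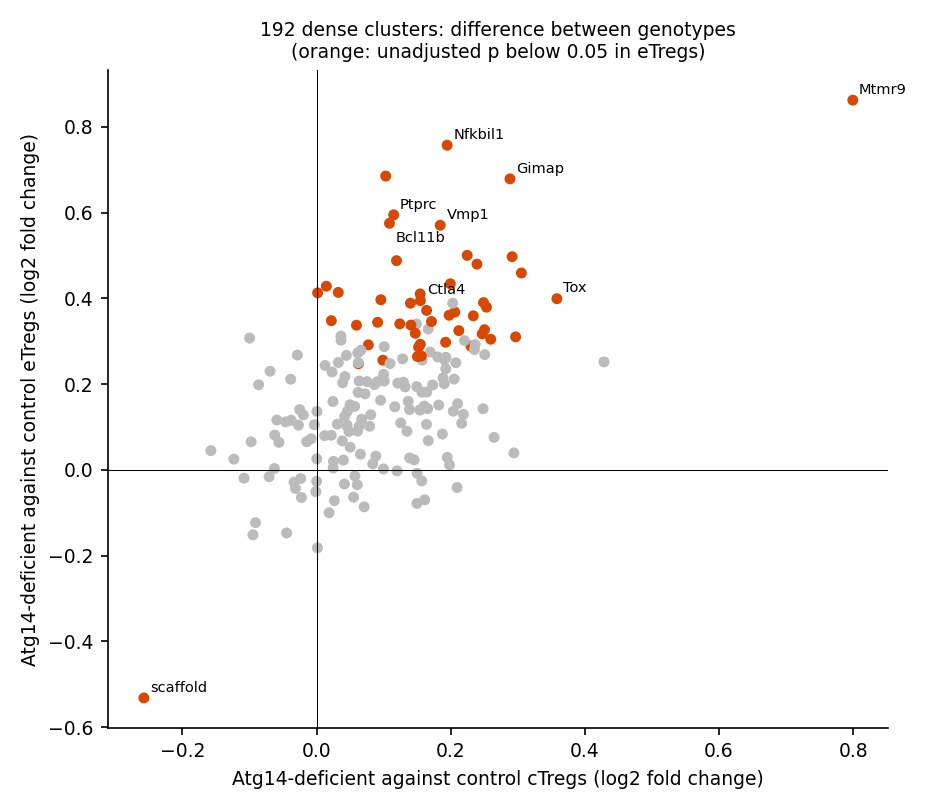
Log2 fold change between Atg14-deficient and control libraries for each of the 192 clusters in cTregs (horizontal axis) and eTregs (vertical axis); orange points had an unadjusted p below 0.05 in eTregs. The orange points lie above 0 on the vertical axis except for the scaffold cluster, and the Mtmr9/Xkr6 cluster lies apart from the rest with log2 fold changes of 0.86 and 0.80.

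In cTregs no cluster was called between the genotypes (0.0179% of the stretches tested), 6 were higher and none lower at an unadjusted p below 0.05 (3.94% of the stretches tested, 2.50% higher and 1.44% lower), and DESeq2 called 1. No member was called (0.0107% of distal regions), and without adjustment 84 were higher and 33 lower at the same fold (3.76%). Of 43819 other distal regions, 1009 were higher and 632 lower. After Mtmr9 and Xkr6, the smallest p belonged to Tox, at 284, 238 and 267 CPM in control and 371, 324, 373 and 280 CPM in Atg14-deficient cTregs, which overlap (log2 fold change 0.36, SE 0.15, unadjusted p = 0.0220), and to the Gimap cluster. No cluster was called uneven (0.0103% of the stretches tested), and 4 had an unadjusted p below 0.05. The median log2 fold change of the clusters was 0.10, and between 0.03 and 0.08 under TMM, loess, GC-content and DESeq2 scaling.

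Whether the effect of genotype differed between the states was tested as the difference of the 2 genotype effects. No cluster was called (0.0% of stretches), with 5 at an unadjusted p below 0.05 (3.05%), all of them with the larger genotype effect in eTregs. No member was called (0.0%), with 90 higher and 27 lower at an unadjusted p below 0.05 and a difference beyond 0.5 (3.13%). Of 43819 other distal regions, 772 were higher and 575 lower. By edgeR, the 3 smallest p-values among clusters belonged to Nfkbil1 (difference 0.56 on the log2 scale, SE 0.22, unadjusted p = 0.0152), Bcl11b (0.47, SE 0.19, unadjusted p = 0.0208) and Ptprc (0.48, SE 0.20, unadjusted p = 0.0234), and none passed adjustment. The Gimap cluster was at 0.39 (SE 0.17, unadjusted p = 0.0306).

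Motifs of Treg transcription factors were counted on both strands of the central 300 bases, spelled RUNX TGTGGTT, ETS ACAGGAAG, TCF/LEF CTTTGAT, AP-1 TGANTCA, KLF GGGNGTG, NF-kappaB GGGANTTCC, AGATAA for the GATA factors, E-box CAGCTG, STAT TTCNNNGAA, NR4A AAAGGTCA and forkhead TGTTTAC, besides CTCF and IRF. Counts are of regions on chromosomes, and a match is a description and not a binding site. Members as a whole were much like the other distal regions: an AP-1 match was found in 18.2% of members and 17.2% of the others, a RUNX match in 14.7% and 15.2%, an ETS match in 12.3% and 11.2%, and a TCF/LEF match in 6.0% and 6.3%. A KLF match was found in 26.6% and 23.2%, and a CTCF match, the motif of a factor at domain boundaries, in 2.3% and 5.0%.

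Motif matches were also counted, as a description, in the members called higher or lower between the states. An AP-1 match was found in 12 of 39 members higher in control eTregs (30.8%) and in 23 of 190 lower (12.1%), beside 38.1% and 12.8% of the other distal regions called higher and lower. In Atg14-deficient libraries the shares were 33.0% of 100 higher and 13.0% of 247 lower members. The TCF/LEF match was found in 14.2% of members lower in control eTregs and in 1 of the 39 that were higher (2.6%), and in 10.1% and 3.0% in Atg14-deficient libraries. A GATA match was found in 23.2% of the lower and 10.3% of the higher members in control libraries, and in 21.9% and 6.0% in Atg14-deficient libraries. Among the other distal regions called in control libraries, a TCF/LEF match was found in 13.9% of the lower and 5.4% of the higher, and a GATA match in 23.3% and 14.5%. In Atg14-deficient libraries the other distal regions called higher and lower held an AP-1 match in 36.7% and 12.8%, a TCF/LEF match in 5.4% and 11.6%, and a GATA match in 13.7% and 21.4%. Differences in motif content, between higher and lower members or between clusters and other regions, were not tested.

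Total counts per library were between 2242983 and 5548189, and the biological coefficient of variation was 25.6% for regions and 24.9% for stretches. Regions within 1000 bp of gene starts took 52.3% to 58.8% of the counts, with overlapping ranges in all 4 groups. The regions at the start of Foxp3 had a group mean of 54.6 to 65.7 CPM, and none lay within 1000 bp of the start of Cd4 or Lef1. Of the effector markers, Cd44 had group means of 19.7 and 20.4 CPM in control and Atg14-deficient cTregs and 23.6 and 21.7 CPM in eTregs, and Klrg1 0.801 and 2.46 CPM against 2.79 and 3.76 CPM. Icos, at 31.9 and 38.8 CPM in cTregs against 19.8 and 22.9 CPM in eTregs, and Prdm1, at 57.7 and 57.9 CPM against 48.3 and 41.3 CPM, lay the other way from the labels. The sum of these 4 was 105 to 115 CPM in control cTregs and 84.2 to 108 CPM in control eTregs, which overlap, and 107 to 131 CPM in Atg14-deficient cTregs and 80.9 to 96.6 CPM in Atg14-deficient eTregs, which do not overlap and run against the labels. Of the central markers, Ccr7 at 30.2 and 37.3 CPM in cTregs against 11.1 and 19.5 CPM in eTregs, and Tcf7 at 10.1 and 8.16 CPM against 4.34 and 5.36 CPM, had group means that ran with the labels. None of 5 B cell markers had a region at its start, 3 of 5 myeloid markers had none and the other two summed to group means of 10.7 to 15.1 CPM. Of 4 CD8 and NK markers, 2 had no region, and the sum of the others was 24.4 to 39.3 CPM in cTregs and 13.6 to 21.6 CPM in eTregs; its part in the state differences was not tested. The regions in Atg14 do not check its deletion, because the deleted exon is not given in the sources used here.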

How the data were processed

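ATAC-seq libraries of 14 sorted Treg samples were analysed. According to the methods, the authors trimmed and aligned reads with BWA, removed duplicates with Picard, shifted reads for the Tn5 offset, kept nucleosome-free reads, called peaks with MACS2 per library, kept peaks that recurred among the replicates of a genotype, merged them and counted reads with bedtools. The submitters' processing notes name cutadapt 1.9, Picard 1.65 and MACS2 2.1.0.20150603. The deposited values are raw counts per merged region. Zeros included, 82.0% of them are even, which leaves uncertain how mates of a pair were counted. The methods name mm9, but all 67207 regions on chromosomes lay within GRCm38, and 10717 of 21938 GENCODE vM21 gene starts had a region no farther than 200 bp away, compared with 797 once the regions were moved by 20000 bp, so GRCm38 was used.

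Counts were tested with edgeR 4.0.16 (R 4.3.3, limma 3.58.1), quasi-likelihood with robust dispersion, total-count scaling and Benjamini-Hochberg adjustment, in a fit of all 14 libraries with 4 groups. Joined stretches, single regions and unevenness within stretches (diffSpliceDGE with Simes p-values) were tested over all features that passed filterByExpr. DESeq2 1.42.0 was an alternative. Tests were checked on simulated counts. Python 3.11.15, pandas 2.3.3, SciPy 1.17.1, pysam 0.24.0 and matplotlib 3.10.9 served for intervals, shares, sequences and figures. Library totals were 2242983 to 5548189 counts. The authors describe both states as sorted from 3 control and 4 Atg14-deficient chimeras, without stating that a library number marks a mouse. Same-numbered cTreg and eTreg libraries correlated in their deviations from the group means at 0.122, 0.244, 0.143 and 0.230 in Atg14-deficient and 0.0532, 0.207 and 0.189 in control libraries. Within a genotype each library correlated best with its own number in the other state. Libraries of different genotypes reached 0.286 (control cTreg 2, Atg14-deficient cTreg 4) and 0.243 (control eTreg 3, Atg14-deficient eTreg 2). Correlations of this size therefore do not establish pairs. The main fit was unpaired, and only the replicate block, an alternative, took same-numbered libraries as pairs. Blocked values stand beside results of both comparisons of states where they change a call or a count. Clusters carry the names of up to 3 genes by overlapping bases. The text names the clusters with the most regions, those with the smallest p in each contrast and direction, the most uneven ones, and those over listed T cell genes; full lists of called clusters go beyond that rule. The members and lists were chosen with earlier results of these data known. Some results that involve withheld items are not reported here.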

Additional observations from a re-analysis of the deposited data

Results flagged for a closer look

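Single libraries stood apart in 3 of 104 groups of 4 libraries examined by the gap of the farthest library over the range of its group, against a critical value of 0.829 that chance passes in about 1 of 20 groups. All 3 were in Atg14-deficient cTregs. Replicate 2 was at 220 CPM in the cluster over Tcf7 and Vdac1, below 254, 261 and 261 CPM in the others. Replicate 4 was at 208 CPM in the cluster over Atxn1, above 128, 113 and 119 CPM. Replicate 2 was at 53.7 CPM in the cluster over Mtmr9 and Xkr6, below 86.1, 85.7 and 89.3 CPM.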

How the results depend on the processing

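The direction of the 15 named clusters called between control states, the 16 called between Atg14-deficient states and the Gimap cluster was kept under each alternative run. With the replicate block, 70 clusters, 420 members and 58 uneven clusters were called in control libraries, and 78, 557 and 79 in Atg14-deficient libraries, with no background share counted. It gave 0 clusters between eTreg genotypes, where the numbers do not pair the libraries (Gimap adjusted p = 0.0774), and with GC-content offsets 75 and 415 in control and 79 and 535 in Atg14-deficient libraries for clusters and members. A minimum of 10 counts in every library left 157 and 229 members of the 1444 it tested. A gap of 10000 bp, which left 90 clusters and 1388 members to test, gave 125 members and 9 uneven clusters in control, and 24 clusters, 185 members and 17 uneven clusters in Atg14-deficient libraries. Requiring 15 regions after the promoter regions were dropped gave 17 uneven of the 111 clusters left in control libraries, and the fold cutoff 24 clusters in Atg14-deficient libraries. Loess offsets called 3 clusters and DESeq2 4 clusters and 3 members between eTreg genotypes, and DESeq2 1 cluster in cTregs. Loess, GC-content offsets, DESeq2 and the fold cutoff were not run for unevenness. Without 1 library, control libraries gave 15 to 32 clusters, 94 to 238 members and 0 to 26 uneven clusters, and Atg14-deficient libraries 28 to 50, 177 to 425 and 18 to 53. Clusters between genotypes numbered 0 to 2 in eTregs and 0 to 1 in cTregs, and members 0 to 1 in eTregs. The Ptprc log2 fold change between Atg14-deficient states was 0.023 with GC-content offsets, 0.022 with the replicate block and these offsets, 0.094 with loess offsets and from -0.13 to 0.012 without 1 library, and that of Ctla4 was 0.0096 with loess offsets. The causes were not tested. At this depth 135 members were too low to test.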
